A study of Mus musculus with 6 samples.

Results

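Adhesion G protein-coupled receptors (adhesion GPCRs) were examined in abdominal aorta of mice lacking Olfr2 (KO) and of wild type mice (WT), both sampled at day 7 after induction of an aneurysm, in which the vessel bulges. Members were all genes of the deposited count table whose symbol is Adgr followed by a subfamily letter and a number, a rule that uses no measured value and leaves out the 3 Celsr genes of the same family. The genes described numbered 26 of 54532, all annotated as protein-coding, of which 25 had at least 1 count and 19 passed the filter on low counts and were tested. The groups were 3 libraries from Olfr2 KO aorta and 3 from WT aorta, all after aneurysm induction. No sample without an aneurysm was analysed here. Not given in the sources used here: strain, sex, age, the way the aneurysm was induced and the number of animals behind a library. The p-values therefore measure the spread between these libraries.

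Adhesion GPCRs carry a long extracellular part that binds matrix or neighbouring cells, a GAIN domain at which most of them cleave themselves, and a stretch just behind the cleavage site that acts as a tethered agonist on the membrane-spanning part. They are grouped into lettered subfamilies by sequence. In the vessel wall and its infiltrate the E subfamily is known from leukocytes (Adgre1 encodes the macrophage antigen F4/80 and Adgre5 encodes CD97), Adgrl4 and Adgrf5 are known from endothelium, and the B subfamily includes a receptor for phosphatidylserine on dying cells.

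Library totals ranged from 17248918 to 21872027 counts. Olfr2 itself had 0 counts in all 6 libraries, where a count of 0 allows 0.14 to 0.182 CPM (counts scaled to library size with TMM factors) by counting error alone, so its level does not check the genotype labels. Skeletal muscle marker genes summed to 983 CPM in KO replicate 3 against 5.01 to 16.0 CPM elsewhere. White adipocyte markers summed to 1358 to 2244 CPM in the KO libraries and 297, 295 and 1369 CPM in WT replicates 1 to 3, so that WT replicate 3 lay with the KO libraries. Over all 16237 tested genes, 2 were called at an adjusted p under 0.05, which is 0.0123%.

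No adhesion GPCR gene described here was called between KO and WT, where 0.0123% of all tested genes were. This was 0 of 19 by the edgeR quasi-likelihood test, with p-values adjusted over all tested genes after Benjamini and Hochberg. DESeq2 also called 0 members, where it called 468 of 29461 genes over the whole table. Limma-voom called 0 of all 16237 genes. With so few genes called by each of these tests, 0 members say nothing particular to the family. At an unadjusted p under 0.05 there were 2 members lower in KO, where 6.08% of all tested genes were lower on that criterion, and 0 members higher, where 5.23% of all tested genes were higher. Those 2 were Adgra2, a Wnt coreceptor of vessels, which in KO stood at 0.781 of its WT level (95% interval 0.623 to 0.978), and Adgrb1, a receptor for dying cells, which had few counts. All 3 KO libraries lay below all 3 WT libraries for 2 members (Adgra2 and Adgrb2), where 9.01% of all tested genes did, and above them for 1 (Adgrg6), where 7.83% did. The median log2 fold change (KO minus WT) was 0.047 over the 19 members and 0.006 over all tested genes, with 9 members below 0 and 10 above. For 17 of the 19 members the estimate was smaller than 0.5 in size, 89.5% against 86.6% of all tested genes.

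**Figure D1:**
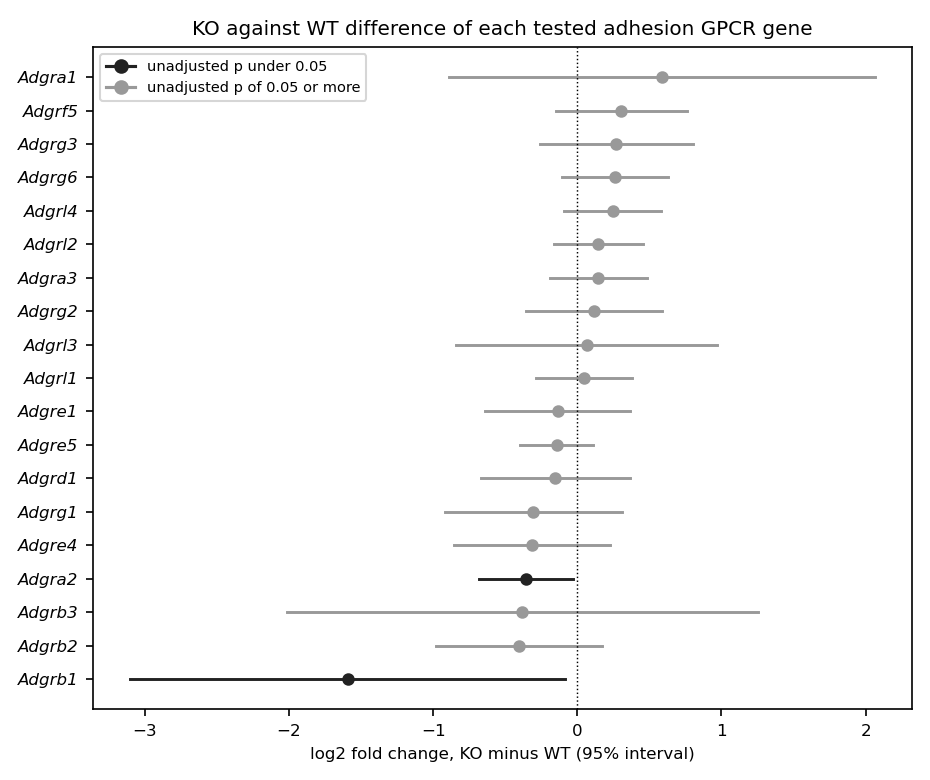
Log2 fold change of each tested adhesion GPCR gene, KO minus WT, on the horizontal axis (edgeR, 3 libraries against 3); points are estimates, lines are 95% intervals and dark symbols have an unadjusted p under 0.05. Only the intervals of Adgrb1 and Adgra2 exclude 0, that of Adgrb1 is wide, and 17 estimates lie within 0.5 of 0.

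To compare members with each other, CPM was divided by the exon length in kb. On that scale Adgre1 stood first, at 106 ± 28.9 CPM per kb in KO and 116 ± 25.7 in WT (SD, n = 3 per group), followed by Adgre5 at 34.7 and 38.3 and Adgra2 at 22.3 and 28.6 in KO and WT. These 3 genes together gave 74.1 ± 3.44% of the members' summed CPM per kb in KO and 77.1 ± 3.68% in WT (SD, n = 3 per group). A close group of 8 genes followed, from Adgrf5 at 9.72 to Adgrg1 at 4.16 CPM per kb over all 6 libraries (Adgrf5, Adgrl4, Adgre4, Adgrd1, Adgrl1, Adgrl2, Adgra3 and Adgrg1), and within it most neighbours overlapped from library to library. Adgrg3, Adgrg2 and Adgrg6 lay between 0.795 and 1.5 CPM per kb, and Adgrb2, Adgra1, Adgrb1, Adgrl3 and Adgrb3 lay below 0.4. The E subfamily alone held 62.0 to 70.9% of the summed CPM per kb in KO and 62.1 to 73.3% in WT, so its share overlapped between genotypes.

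**Figure D2:**
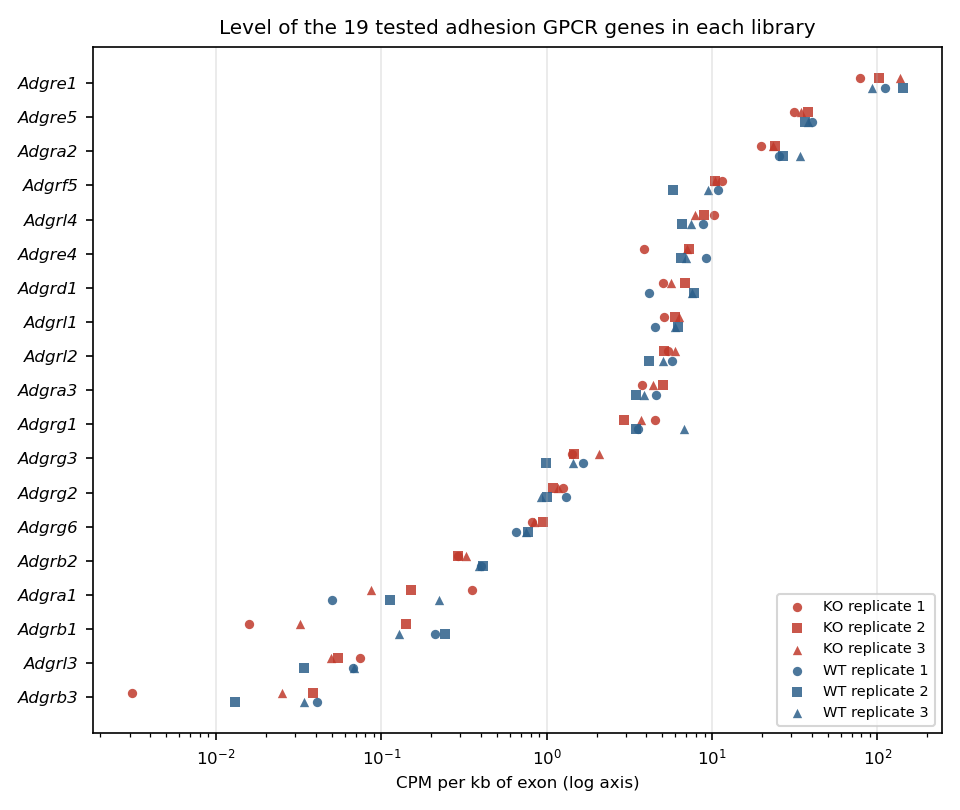
Level of the 19 tested adhesion GPCR genes in each library as CPM per kb of exon on a log axis, KO red and WT blue, with the marker shape giving the replicate. Levels fall from about 111 CPM per kb for Adgre1 to 0.0258 for Adgrb3, and the 2 colours do not overlap for Adgra2, Adgrb2 and Adgrg6.

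The E subfamily, the leukocyte receptors, gave the most RNA of the family and had 0 members at an unadjusted p under 0.05. Adgre1 stood at 254, 331 and 440 CPM across KO replicates 1 to 3, against 360, 465 and 301 CPM across WT replicates 1 to 3. The spread within each genotype was larger than the difference between their means, and the log2 fold change was -0.13 with a 95% interval of -0.64 to 0.37. Leaving out KO replicate 1 gave 0.038, and leaving out WT replicate 2 gave 0.047. The 10 macrophage markers, none of them a family member, summed to 3826, 4162 and 4712 CPM in the KO libraries and 3951, 6381 and 4327 CPM in WT. KO replicate 1 was the lowest and WT replicate 2 the highest library for both Adgre1 and this sum. Among those markers Aif1 and Fcgr1 were lower and Mrc1 higher in KO at an unadjusted p under 0.05.

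Adgre5 (CD97), which binds the complement regulator CD55 and is found on most leukocytes, stood at 118, 143 and 130 CPM in the KO libraries and 151, 137 and 143 CPM in WT. The groups overlapped and the log2 fold change was -0.14 (95% interval -0.40 to 0.11). Of its exon bases 24.6% overlap other annotated genes, Ddx39 on the opposite strand and Mir1668. Whether the counting used strand was not stated in the labels, so its count is uncertain. Adgre4, a myeloid receptor related to F4/80, stood at 13.6, 25.2 and 24.5 CPM in the KO libraries and 31.9, 22.8 and 24.1 CPM in WT. KO replicate 1 was low and WT replicate 1 high, and the other 4 libraries lay within 22.8 to 25.2 CPM. Its log2 fold change was -0.31 (95% interval -0.86 to 0.23), with -0.081 when KO replicate 1 was left out and -0.15 when WT replicate 1 was.

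Beside these receptors, the leukocyte marker lists differed among themselves. They were chosen with earlier results of these data known, so their counts are descriptions and not tests. Over all tested genes, 6.08% were lower and 5.23% higher in KO at an unadjusted p under 0.05 by edgeR. The 8 T cell markers summed to 143, 158 and 148 CPM across KO replicates 1 to 3, against 213, 257 and 227 CPM across WT replicates 1 to 3, with 8 of 8 lower at an unadjusted p under 0.05. The 8 markers of NK and cytotoxic cells (8 of 8 lower) summed to 91.2 to 154 CPM in the KO libraries and 194 to 307 CPM in WT. Dendritic cell markers (4 of 7 lower, sums of 112 to 153 CPM against 183 to 238 CPM) and monocyte markers (5 of 8 lower and 1 higher, sums of 1132 to 1519 CPM against 1564 to 2808 CPM) also did not overlap. The 6 B cell markers had 0 lower and 0 higher, with sums of 51.8 to 58.0 CPM in the KO libraries and 47.1 to 73.7 CPM in WT. Of 4 eosinophil markers 3 were tested, with 0 lower and 0 higher and sums of 14.2 to 36.4 CPM in the KO libraries and 12.5 to 21.5 CPM in WT. No marker of these lists was at 0 in all libraries and 0 were called after adjustment. Their part in the values of the E subfamily was not tested, and in RNA from whole tissue fewer cells of a type and less RNA per cell cannot be told apart.

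In the A subfamily Adgra2 had values lower in KO. It encodes GPR124, which works with Reck as a coreceptor for Wnt7 ligands in brain endothelium. It stood at 113, 138 and 135 CPM in the KO libraries and 146, 154 and 196 CPM in WT. Every KO library was below every WT library, with KO replicate 2 the nearest to the WT range. The log2 fold change was -0.36 (SE 0.14), with an unadjusted p of 0.0346 and an adjusted p of 0.388 by edgeR. Without WT replicate 3, the highest library, it was -0.22 with an unadjusted p of 0.145, and without KO replicate 1, the lowest, -0.27 with an unadjusted p of 0.116. With library size alone as the scaling it was -0.32 with an unadjusted p of 0.0534.

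KO replicate 1 and WT replicate 3 were also the lowest and the highest library for the 7 fibroblast markers, which summed to 18760, 20410 and 25300 CPM in the KO libraries and 23770, 28290 and 31800 CPM in WT. Of these markers 0 had an unadjusted p under 0.05, and their part in the Adgra2 difference was not tested. Reck stood at 33.2 ± 2.92 CPM in the KO libraries and 29.5 ± 0.845 CPM in WT (SD, n = 3 per group), on the other side from Adgra2, with an adjusted p of 0.652 by edgeR. Wnt7a had 0 counts in every library and Wnt7b had 3 counts in all. Adgra3, the related receptor GPR125, stood at 35.7 ± 5.04 CPM in the KO libraries and 32.3 ± 4.54 CPM in WT (SD, n = 3 per group), a log2 fold change of 0.15 (95% interval -0.19 to 0.49). Adgra1 had 33, 16 and 10 counts in KO and 5, 10 and 21 in WT, and its log2 fold change of 0.59 had a 95% interval of -0.89 to 2.06, turning to -0.12 without KO replicate 1.

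The endothelial receptors Adgrf5 and Adgrl4 had the same highest and the same lowest library. Adgrf5 encodes GPR116, known from surfactant control in the lung and from endothelium, and Adgrl4 encodes ELTD1, a regulator of vessel sprouting. Their start regions are shown because the receptors shared their highest and lowest library; each runs from 250 bases before to 50 bases after a RefSeq transcript start (GRCm38.p6), 5′ to 3′ on the plus strand. Capitals mark matches to 3 short motifs searched on both strands, GGAAGT (ETS core), TGTGGT (RUNX core) and the core of the interferon-stimulated response element (GAAA, any 2 bases, GAAA).
Adgrf5, chr17:43389216-43389515: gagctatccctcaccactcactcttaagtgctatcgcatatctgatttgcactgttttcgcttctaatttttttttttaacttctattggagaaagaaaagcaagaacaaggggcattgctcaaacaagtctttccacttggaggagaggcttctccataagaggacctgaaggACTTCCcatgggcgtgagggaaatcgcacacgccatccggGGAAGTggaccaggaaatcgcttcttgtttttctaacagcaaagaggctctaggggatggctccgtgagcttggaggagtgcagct
Adgrl4, chr3:151437632-151437931: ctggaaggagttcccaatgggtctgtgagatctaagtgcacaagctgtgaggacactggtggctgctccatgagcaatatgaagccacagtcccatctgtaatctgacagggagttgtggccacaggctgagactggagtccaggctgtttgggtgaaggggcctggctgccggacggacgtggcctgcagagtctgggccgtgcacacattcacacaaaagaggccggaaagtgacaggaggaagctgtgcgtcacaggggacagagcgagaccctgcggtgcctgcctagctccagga

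The Adgrf5 window held 2 ETS core matches, which begin 76 bases before the start on the reverse strand and 36 bases before it on the forward strand and do not overlap. The Adgrl4 window and the window at the other RefSeq start of Adgrf5 held no match to any of the 3 motifs. That other window (chr17:43360181-43360480) is not printed and spans the annotated start of the gene, at 43360451. The printed Adgrf5 window lies inside the gene. Any part of these sequences in the shared library order was not tested. Among 32841 promoter windows of the same length in the RefSeq table, 23.8% held the ETS core, 16.8% the RUNX core and 3.44% the interferon element core. The table had 23 windows for 19 of the 26 members, of which 4, 4 and 2 held the ETS, RUNX and interferon cores. A match is a description of the letters and not a measured site.

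Adgrf5 stood at 103, 93.7 and 93.8 CPM in the KO libraries and 97.8, 52.4 and 84.8 CPM in WT. Adgrl4 stood at 47.3, 41.0 and 36.3 CPM in the KO libraries and 40.6, 30.1 and 34.3 CPM in WT. For both genes KO replicate 1 was the highest, WT replicate 2 the lowest, and WT replicate 1 lay among the KO libraries. The log2 fold changes were 0.31 (95% interval -0.15 to 0.76) for Adgrf5 and 0.25 (95% interval -0.09 to 0.58) for Adgrl4. Without WT replicate 1 they were 0.50 and 0.37 with unadjusted p of 0.0358 and 0.0397 by edgeR, and without WT replicate 2 they were 0.08 and 0.15. The 10 endothelial markers, such as Pecam1 and Cdh5, summed to 743, 857 and 927 CPM in the KO libraries and 927, 679 and 967 CPM in WT, with 0 at an unadjusted p under 0.05. WT replicate 2 was the lowest library there as well, but KO replicate 1 was the next lowest, where it was the highest for both receptors. The white adipocyte sum shared both extremes with the receptors, at 2244 CPM in KO replicate 1 and 295 CPM in WT replicate 2. There WT replicate 1 was close to the lowest, at 297 CPM. The part of either list in the receptor values was not tested.

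Latrophilins, the rest of the L subfamily, bind teneurins and FLRT proteins on neighbouring cells. Adgrl2 stood at 76.8, 73.1 and 84.9 CPM in the KO libraries and 81.3, 58.6 and 72.2 CPM in WT, with a log2 fold change of 0.15 (95% interval -0.16 to 0.46). Adgrl1 stood at 43.8, 51.1 and 53.8 CPM in the KO libraries and 38.8, 53.8 and 51.5 CPM in WT, and its log2 fold change of 0.05 (95% interval -0.29 to 0.38) is the smallest in size among the tested members. Of its exon bases 15.6% overlap other annotated genes on the opposite strand, as do 8.9% of those of Adgrl3, so both counts are uncertain. Adgrl3 had 10 to 23 counts per library. Both groups overlapped for all 3 latrophilins. Adgrd1, which encodes GPR133, a receptor that raises cyclic AMP, stood at 42.0, 56.7 and 46.8 CPM in the KO libraries and 34.4, 64.6 and 62.7 CPM in WT. The WT libraries enclosed the KO libraries, and the log2 fold change was -0.15 (95% interval -0.67 to 0.37), and -0.39 without WT replicate 1, with an unadjusted p of 0.0262 by edgeR.

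**Figure D3:**
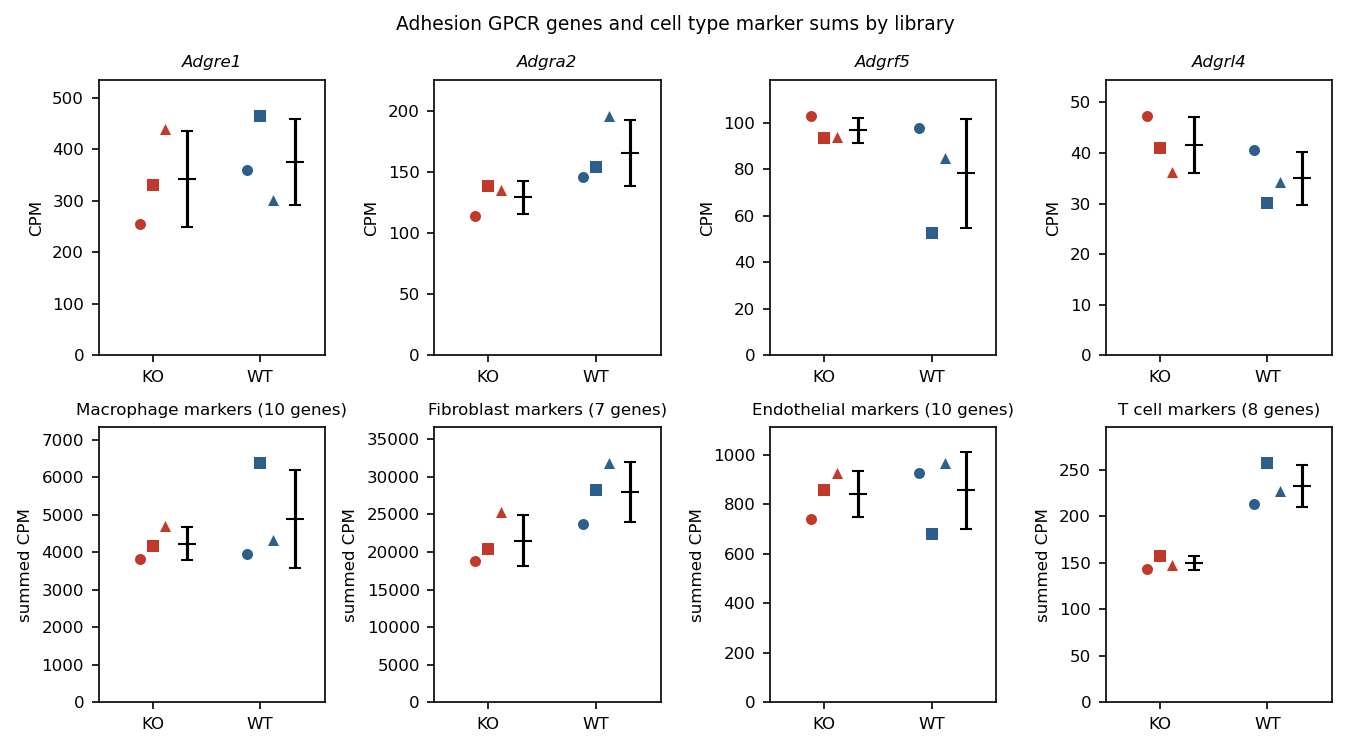
CPM of Adgre1, Adgra2, Adgrf5 and Adgrl4 (upper row) and summed CPM of macrophage, fibroblast, endothelial and T cell markers (lower row), KO red and WT blue, one point per library with circle, square and triangle for replicates 1, 2 and 3 and black bars giving mean and SD of 3 libraries; all vertical axes start at 0. Adgra2 and the T cell sum have all KO points below all WT points, while the groups overlap in the other panels.

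In the G subfamily the groups overlapped for Adgrg1 and Adgrg3, which lie 3474 bases apart on chromosome 8 (GRCm38). Adgrg1 encodes GPR56, a receptor for collagen III. It stood at 24.5, 16.0 and 20.1 CPM in the KO libraries and 19.2, 18.9 and 36.6 CPM in WT, where WT replicate 3 alone was high. Its log2 fold change was -0.30 with an SE of 0.27 (edgeR adjusted p = 0.752) and 0.082 without WT replicate 3. Adgrg3, which encodes GPR97 and is known from granulocytes, stood at 9.75, 10.0 and 14.2 CPM in the KO libraries and 11.4, 6.85 and 9.90 CPM in WT. Its log2 fold change was 0.27 with an SE of 0.23 (edgeR adjusted p = 0.74). The 8 neutrophil markers summed to 798 to 1007 CPM in the KO libraries and 812 to 875 CPM in WT, also overlapping. Of these 8, 2 were higher in KO at an unadjusted p under 0.05, where 5.23% of all tested genes were.

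Of the other G members described, Adgrg6 encodes GPR126, which binds collagen IV and is needed for myelination by Schwann cells. It stood at 9.93, 11.6 and 10.3 CPM in the KO libraries and 7.94, 9.40 and 9.21 CPM in WT. All KO libraries were above all WT libraries by a narrow margin, with a log2 fold change of 0.26 and an SE of 0.16 (edgeR adjusted p = 0.608). Schwann cell markers summed to 78.5 to 161 CPM in the KO libraries and 66.9 to 207 CPM in WT, overlapping, with 0 of 7 at an unadjusted p under 0.05. Adgrg2, known from fluid transport in the epididymis, stood at 6.16 ± 0.434 CPM in the KO libraries and 5.69 ± 1.07 CPM in WT (SD, n = 3 per group), with a log2 fold change of 0.11 (95% interval -0.36 to 0.59).

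The B subfamily, named brain angiogenesis inhibitors, was detected at low counts. Adgrb1 encodes BAI1, which binds phosphatidylserine and passes the signal for engulfment to Elmo1 and Dock1. It had 2, 20 and 5 counts in KO and 28, 29 and 16 in WT, or 0.115, 1.02 and 0.233 CPM against 1.52, 1.76 and 0.921 CPM. KO replicate 2 lay within the WT range while the other KO libraries were below it. The log2 fold change was -1.59 (SE 0.67), with an unadjusted p of 0.0408 and an adjusted p of 0.412 by edgeR. It was -2.92 without KO replicate 2 with an unadjusted p of 0.0014, and without KO replicate 1 it was -1.16 with an unadjusted p of 0.111. Without KO replicate 3, WT replicate 1 or WT replicate 2 the unadjusted p was 0.123, 0.0901 and 0.114 by edgeR, and without WT replicate 3 it was 0.0358. Adgrb2 had 33, 37 and 45 counts in KO and 48, 44 and 44 in WT. In CPM these were 1.89, 1.89 and 2.10 against 2.61, 2.67 and 2.53, groups that did not overlap, with a log2 fold change of -0.41 and an SE of 0.25 (edgeR adjusted p = 0.612). Adgrb3, which binds C1q-like proteins, had 1 to 14 counts per library and a 95% interval of -2.01 to 1.25.

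The 7 members that were not tested were Adgrf1, Adgrf2, Adgrf3, Adgrf4, Adgrg4, Adgrg7 and Adgrv1. Adgrg4 had 0 counts in all 6 libraries. The others had between 5 counts (Adgrf4) and 41 counts (Adgrv1) over all libraries together, with at most 14 in any one library. Without a count filter in edgeR, and by DESeq2, 6 of the 7 were tested and 0 had an unadjusted p under 0.05.

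Of 8 listed related genes 6 were tested. The 3 Celsr genes among them, which encode the cadherin-type adhesion GPCRs named outside the Adgr series, had 0 members at an unadjusted p under 0.05. Celsr1 stood at 7.84 ± 2.48 CPM in the KO libraries and 9.71 ± 1.88 CPM in WT (SD, n = 3 per group). Celsr3 stood at 3.64 ± 0.792 CPM in the KO libraries and 2.70 ± 1.20 CPM in WT (SD, n = 3 per group). Celsr2 stood at 3.84, 2.46 and 3.50 CPM in the KO libraries and 0.87, 1.09 and 5.47 CPM in WT, with WT replicate 3 high. The log2 fold changes of Celsr1, Celsr2 and Celsr3 were -0.31, 0.40 and 0.43, each with a 95% interval across 0.

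Of 45 listed ligands and binding partners of the family, 32 were tested, of which 3 were lower and 1 higher in KO at an unadjusted p under 0.05, where 6.08% and 5.23% of all tested genes were, and 0 were called. Their median log2 fold change was -0.04. Thy1, a surface glycoprotein of T cells and fibroblasts that CD97 binds, stood at 128, 145 and 157 CPM in the KO libraries and 166, 216 and 181 CPM in WT, groups that did not overlap, with a log2 fold change of -0.39 and an SE of 0.13 (edgeR adjusted p = 0.315). The T cell markers lay on the same side as Thy1. The fibroblast markers summed to 18760, 20410 and 25300 CPM in the KO libraries and 23770, 28290 and 31800 CPM in WT. Those groups overlapped, with 0 fibroblast markers at an unadjusted p under 0.05 by edgeR. The part of either list in the values of Thy1 was not tested. Ptn, the heparin-binding growth factor pleiotrophin, stood at 18.2, 19.1 and 16.2 CPM in the KO libraries and 22.6, 71.9 and 26.4 CPM in WT, where WT replicate 2 stood far above the rest. Ptk7, a partner of Adgrd1, had a log2 fold change of -0.42 (SE 0.18). The tetraspanin gene Cd9 was the one with higher values in KO, at 172 ± 10.5 CPM against 138 ± 7.83 CPM in WT (SD, n = 3 per group). Col3a1, the collagen that GPR56 binds, and Cd55 had adjusted p of 0.816 and 0.832 by edgeR.

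All 23 listed effectors, the G proteins, arrestins, scaffolds and engulfment adaptors, were tested, of which 4 were lower and 2 higher in KO at an unadjusted p under 0.05, where 6.08% and 5.23% of all tested genes were, and 0 were called. Elmo1, the engulfment adaptor of BAI1, stood at 48.9, 48.5 and 56.1 CPM in the KO libraries and 65.7, 75.7 and 60.3 CPM in WT, groups that did not overlap, with a log2 fold change of -0.39 and an SE of 0.12 (edgeR adjusted p = 0.267). Elmo2 (-0.30), Gnai2 (-0.31) and Arrb2 (-0.27) had log2 fold changes on the same side. The T cell, NK, dendritic cell and monocyte marker sums given beside the E subfamily also lay lower in KO. The macrophage, neutrophil, B cell and eosinophil sums given above overlapped between the groups. Of the 8 neutrophil markers 2 were higher and 0 lower in KO at an unadjusted p under 0.05. Of the 8 monocyte markers 6 had log2 fold changes below 0 and 2 above, with Chil3 higher at an unadjusted p under 0.05. The part of these markers in the values of the 4 lower effectors was not tested. Dock1, the exchange factor that works with Elmo1, had a log2 fold change of -0.05 (SE 0.14). Gnas, which encodes the stimulatory G protein that raises cyclic AMP, stood at 38.8, 39.0 and 48.9 CPM in the KO libraries and 24.9, 32.3 and 32.1 CPM in WT, a log2 fold change of 0.51 and an SE of 0.15 (edgeR adjusted p = 0.244). Gnai1, an inhibitory G protein subunit, stood at 31.9, 28.3 and 28.1 CPM in the KO libraries and 11.7, 15.8 and 22.7 CPM in WT. Its log2 fold change was 0.81 (SE 0.22). Smooth muscle markers, also chosen with earlier results known, summed to 2767, 1782 and 2295 CPM in the KO libraries and 1137, 1524 and 1020 CPM in WT. Of these markers 8 of 8 were higher at an unadjusted p under 0.05. White adipocyte markers (4 of 7 higher) summed to 2244, 1358 and 1540 CPM in the KO libraries and 297, 295 and 1369 CPM in WT. Brown adipocyte markers (2 of 3 tested higher) summed to 10.0 to 68.1 CPM in the KO libraries and 0.38 to 9.09 CPM in WT. The part of these lists in the values of Gnas and Gnai1 was not tested.

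**Figure D4:**
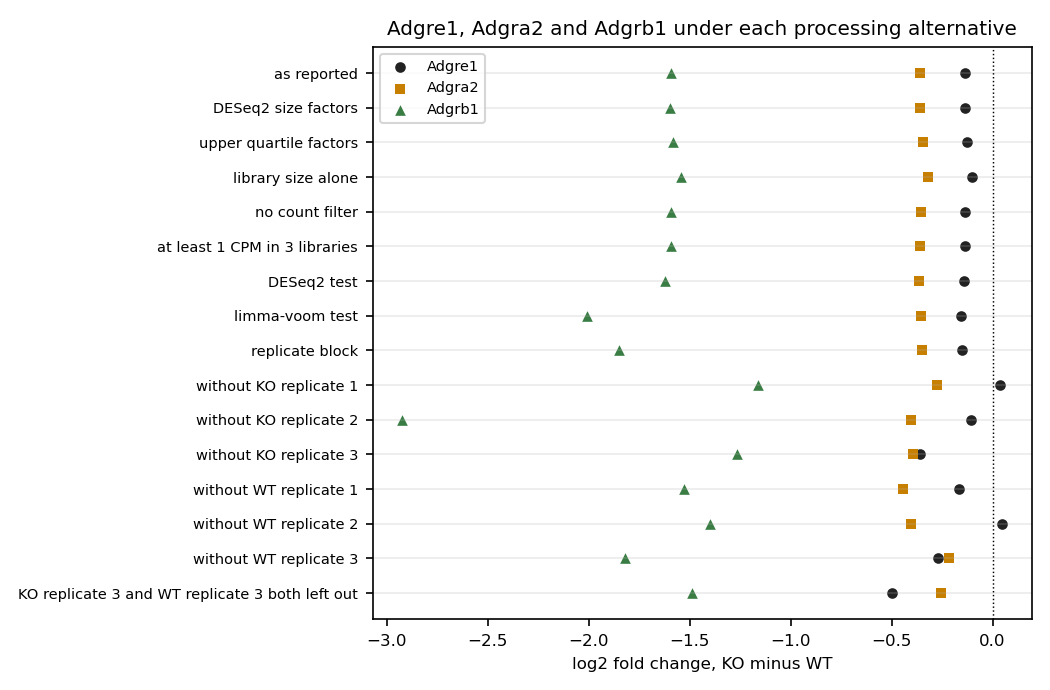
Log2 fold change (KO minus WT, horizontal axis) of Adgre1, Adgra2 and Adgrb1 as reported and under 15 processing alternatives, one row each. Adgra2 keeps within -0.44 to -0.22 and Adgrb1 ranges from -2.92 to -1.16, while Adgre1 lies on both sides of 0, from -0.50 to 0.047.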

How the data were processed

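RNA came from abdominal aorta and libraries from poly-T bound RNA, per the labels' protocols. The authors deposited raw read counts per gene for 6 libraries, 3 KO and 3 WT. The submitters' processing notes list HISAT2 2.0.5, featureCounts 1.5.0-p3 and GRCm38, with no role given. Not given in the sources used here: strand setting, handling of multi-mapping reads, annotation release. Pairs of libraries gave 25.6 to 81 chi-square per degree of freedom, so none was a repeat.

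The analysis used edgeR 4.0.16 under R 4.3.3. Genes were kept by filterByExpr, libraries scaled by TMM, and KO tested against WT by its quasi-likelihood test, Benjamini-Hochberg adjusted across 16237 genes and a threshold of 0.05. Standard errors were the log2 fold change over the square root of F, and intervals used 95%. The test was also run on counts simulated from the means and spread of these data, and its recovery is not given here. Exon lengths, positions and exon overlap came from GENCODE M21 (GRCm38), and promoter sequences from RefSeq (GRCm38.p6). Alternatives used other scalings and filters, DESeq2 1.42.0, limma-voom (limma 3.58.1), a replicate block and libraries left out. Figures used matplotlib 3.10.9.

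Members, marker lists and the lists of partners and effectors were chosen with earlier results of these data known. 1 gene that the name pattern also matches is not reported here, and no count of members includes it. Every other tested member is named. Of the partner and effector lists, up to 6 genes with the smallest unadjusted p under 0.05 are named, with the Celsr genes. Reck, Wnt7a, Wnt7b, Col3a1, Cd55 and Dock1 were named as partners of members described, and Aif1, Fcgr1 and Mrc1 as the macrophage markers past the unadjusted threshold, all after their values were seen.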

Additional observations from a re-analysis of the deposited data

How the results depend on the processing

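Under 15 alternatives, 273 of 283 log2 fold changes of tested members kept their direction. Of the 19 members 13, Adgra2 and Adgrb1 among them, kept it under every alternative run. All 10 reversals came with libraries left out. The other alternatives refitted the same 6 libraries, so they check the processing and not the spread between libraries. Values near 0 counted as kept, such as Adgrd1 at -0.001 without WT replicate 2. Genes called over the whole table, 2 as reported, numbered 644 without a count filter, 468 by DESeq2, 0 by limma-voom, 206 with KO replicate 3 and WT replicate 3 both left out, and 0 to 155 with single libraries left out; the cause was not tested. Members called numbered 0 under each of the 15 alternatives. Members at an unadjusted p under 0.05 numbered 0 to 2 lower and 0 to 2 higher in KO with single libraries left out. Over all tested genes those shares were 4.2 to 7.19% lower and 4.03 to 5.93% higher. With library size alone as the scaling 1 member was lower (Adgrb1), where 4.9% of all tested genes were. With KO replicate 3 and WT replicate 3 both left out, 1 member (Adgra1, 1.62) was higher, 1 (Adgre1, -0.50) was lower and Adgrg1 turned to 0.09. There 4.89% of all tested genes were higher and 4.81% lower. With single libraries left out, the log2 fold change ranged from -0.36 to 0.047 for Adgre1, -0.086 to 0.14 for Adgrl1, -0.47 to 0.082 for Adgrg1, -0.19 to 0.22 for Adgrl3, -0.12 to 1.26 for Adgra1 and -0.98 to 0.10 for Adgrb3. No pairing by replicate number was seen, as deviations of same-numbered libraries correlated at -0.101, -0.0622 and -0.12. The labels give no pairing, and these correlations do not test for a shared batch. With the replicate number as a block, 0 genes were called and Adgra2 stood at -0.35. Adgra1, Adgrb1, Adgrb3 and Adgrl3 rest on few counts, which limits their precision.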

Other observations

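Read counts of related members were also set against each other within a library, for 2 pairs chosen after their values were seen. Adgrl4 to Adgrf5 counts, the endothelial pair, stood at 0.428 ± 0.0371 in KO and 0.464 ± 0.0952 in WT (SD, n = 3 per group), with a two-sided p of 0.8 by exact permutation. Adgre4 to Adgre1 counts stood at 0.0618 ± 0.0125 in KO and 0.0726 ± 0.0208 in WT (SD, n = 3 per group), with a two-sided p of 0.6 by exact permutation. Both were 0.8 after adjustment over the 2 pairs, and 0.1 is the lowest value possible with 3 libraries a group.

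Of the members with a window, Adgre4 alone held both the ETS and the RUNX core within 1 window, with the RUNX match beginning 5 bases before the start. Singly, 23.8% and 16.8% of all windows held these cores. The share of all windows with both was not counted, so this is not read as particular to Adgre4. Among the members with a window, matches to the interferon element core were found for Adgrl3 and Adgrg7 alone. Both genes had few counts in either genotype. Adgre1, Adgre5, Adgra2, Adgrb1, Adgrd1, Adgrf2 and Adgrf3 had no window and were not searched.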
